A study of Mus musculus with 14 samples.

Results

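On the mouse arrays of this study, 62 of 12488 probe sets carry a single annotated symbol of an immunoglobulin heavy or light chain gene, and they stand for 26 genes. They were chosen by name: a symbol that starts with Igh, Igk or Igl and goes on with a class or segment name, leaving out Ighmbp2 and Igll1, which are no immunoglobulin chains of this kind. The heavy chain constant genes have 27 of these probe sets, with 16 for Ighm, 7 for Ighg3, 3 for Igha and 1 for Ighd. Heavy chain variable segments have 9 (Igh-VS107, Ighv1-54, Ighv14-2, Ighv3-6 and Ighv5-12), the lambda constant gene Iglc1 has 1, and 25 belong to 16 kappa variable segments. Since 11 genes are read by more than 1 probe set, a probe set is named here by its gene and its rank by mean level within that gene, so that Ighm 1 is the Ighm probe set of highest mean.

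RNA labelled as murine lymph node was hybridised to 14 one-colour Affymetrix arrays. The 2 genotypes were Atm+/+ (WT) and Atm-/- (KO). In each, 3 arrays were untreated, 2 were taken 30 min after ionizing radiation and another 2 after 120 min. No dose, strain, age or pooling is given in the sources used here, nor whether replicate arrays came from separate animals, so p-values measure only the spread between these arrays. The question the design poses is how loss of Atm, with and without radiation, altered transcript levels.

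An antibody joins heavy chains to kappa or lambda light chains. Each chain has a variable region, assembled from gene segments by recombination, and a constant region, which in the heavy chain sets the class: Ighm gives IgM, Ighd gives IgD, Ighg3 a class of IgG and Igha gives IgA. B cells start with mu and delta and can switch to a downstream constant gene through DNA breaks, a process in which the kinase Atm takes part. Plasma cells secrete antibody in large amounts, and IgA, joined by the J chain (Jchain), is carried across glandular epithelium by the receptor Pigr.

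Some arrays stood apart before any comparison. KO 120 min A had the highest value of 37 of the 50 tested immunoglobulin probe sets (74%), while it was the highest array for 7.81% of all 8938 tested probe sets. The summed level of 17 skeletal muscle markers was 1291 on it, against 1667 to 13334 on the other 13 arrays. KO 30 min A had the lowest mean correlation with the other arrays (0.908). The Atm probe set overlapped between genotypes (5.5 to 55.9 in WT, 7.5 to 44 in KO), and the annotation does not say which part of the transcript it reads, so it is no check of the labels. The 25 B cell markers summed to 7297 to 11444 over the arrays, a sum that does not show each of them to be present. The 9 salivary gland markers summed to 43784 to 75394, so the tissue label does not describe all the RNA.

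Of the 62 immunoglobulin probe sets, 50 lay above their array's 40th percentile on at least 2 arrays and were tested. The 12 others were low, with mean levels of 5.2 to 27.7 and a highest single value of 103.5 (Igha 3 on KO 120 min A). They are Igha 3, Ighg3 7, Ighm 12 to 16, Igh-VS107 2 and 3, Igkv1-135 1, Igkv2-112 1 and Igkv9-120 3. Values are the deposited intensities, and differences are log2 differences of value + 32 after quantile normalization, with standard errors (SE) from limma, which understate the change of low probe sets. A probe set was called at a Benjamini-Hochberg adjusted p under 0.05 over all 8938. Levels of different probe sets are not comparable with each other, and among the 62 are 27 whose suffix marks them as reading a family of like sequences, so near-identical segments may share signal.

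The brighter of the 2 tested probe sets annotated to Igha alone, the alpha constant gene, was lower in KO. Igha 1 (probe set 100583_at) read 3236, 3141 and 3631 on the untreated WT arrays, 3373 and 3294 at 30 min, and 2295 and 2159 at 120 min. In KO it read 578.5, 1812 and 2126 untreated, 457.1 and 829.8 at 30 min, and 768 and 523.9 at 120 min. Every KO array lay below every WT array, with KO untreated C and B the closest to WT. Averaged over the 3 conditions, Igha 1 was 3.49-fold lower in KO (log2 difference -1.80, SE 0.25, adjusted p = 0.00723 by limma). That average called 15 of all tested probe sets (0.168%) and 3 of the 50 immunoglobulin ones. In the same comparison, Igha 2 had a difference of -0.68 (SE 0.13, adjusted p = 0.111) and did not pass. Its level was 48.1 to 97.3 on the WT arrays and 11 to 54.3 on the KO arrays, so the genotypes overlapped. Probe sets annotated to several symbols are not among the 50. Of these, the one for Ighg3, Igha and Ighm had an averaged difference of 0.06 (adjusted p = 0.993 by limma). The one for Ighv14-2, Ighg3, Igha and Ighm had -0.13 (adjusted p = 0.958 by limma). Which transcripts they read was not checked.

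The 2 brightest probe sets annotated to Ighm, the mu constant gene, differed between genotypes in opposite directions. Ighm 1 (99420_at) was lower in KO, as Igha 1 was. It is annotated to Ighm alone, but which transcript it reads was not checked here, so its values cannot be assigned to mu or to alpha. Its deviations within groups follow those of Igha 1 (r = 0.92). That does not tell which transcript it reads, since Kng1 followed Igha 1 more closely (r = 0.95) and Igha 2 less closely (r = 0.45). It read 2599, 2617 and 3377 on untreated WT arrays, 2946 and 3637 at 30 min and 1884 and 2016 at 120 min. In KO it read 682.3, 1696 and 1842 untreated, 777.3 and 862.5 at 30 min, and 1016 and 784.7 at 120 min. Here too no KO array reached the lowest WT array. The averaged difference was -1.40 (SE 0.20, adjusted p = 0.00814 by limma), or 2.63-fold lower. Igha 1 and Ighm 1 were the only 2 of all tested probe sets (0.0224%) whose 7 KO arrays all lay below the 7 WT arrays; 3 (0.0336%), none of them an immunoglobulin probe set, lay the other way.

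Ighm 2 (93583_s_at) was higher in KO. Its values were 660.4, 1296 and 999.4 on untreated WT arrays, then 1082 and 999.1 (30 min) and 643.8 and 462.9 (120 min). The KO arrays read 1503, 1861 and 1208 untreated, 1656 and 1228 at 30 min, and 3301 and 2298 at 120 min. Only WT untreated B, at 1296, overlapped the KO range. The averaged difference was 1.12 (SE 0.18, adjusted p = 0.0211 by limma), or 2.18-fold higher. At 120 min alone Ighm 2 was 4.65-fold higher in KO (log2 difference 2.22, SE 0.32, adjusted p = 0.00952 by limma); that comparison called 23 of all tested probe sets (0.257%) and 1 of the 50.

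**Figure D1:**
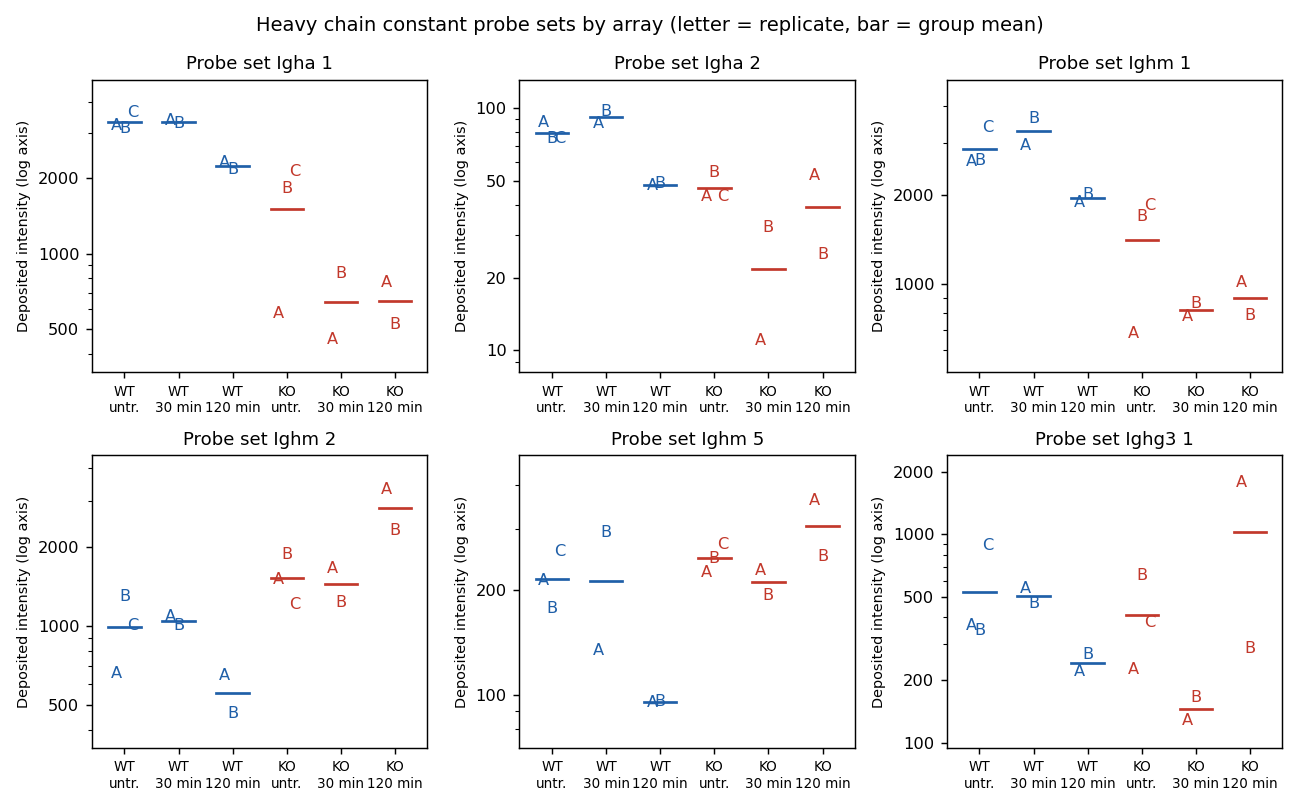
Deposited intensity (log axis) of 6 heavy chain constant probe sets in the 6 groups, with each array drawn as its replicate letter and a bar at the group mean. Igha 1 and Ighm 1 lie lower on all 7 KO arrays than on any WT array, Ighm 2 is highest at 120 min in KO, and KO 120 min A stands far above KO 120 min B for Ighg3 1 (1770 against 283.8).

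These calls did not all survive the loss of an array. Igha 1 stayed called in all 14 fits that each left out 1 array, with averaged differences of -1.92 to -1.62. Ighm 1 lost its call without WT 120 min B (-1.36, adjusted p = 0.0529). The averaged call of Ighm 2 ended in 8 of the 14 fits: without WT untreated C, either WT array at 30 or at 120 min, KO untreated A, KO 30 min A or KO 120 min A, with differences of 1.03 to 1.19 and adjusted p from 0.0510 to 0.132. At 120 min its call ended without WT 120 min B (2.04, adjusted p = 0.167), without KO 120 min A (1.95, adjusted p = 0.171) and in a fit of only the arrays compared (2.22, adjusted p = 0.118). Without KO 120 min B, leaving KO 120 min A alone in its group, 12 of the 50 were called higher in KO at 120 min, where 49 of 8902 tested were called. The direction of all 3 probe sets was the same in every such fit.

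The remaining Ighm probe sets did not pass. Ighm 5 (93584_at) came nearest to Ighm 2, with an averaged difference of 0.53 (SE 0.16, adjusted p = 0.416). It read 134.2 to 292.2 on WT arrays before 120 min, 95.4 and 96.1 in WT at 120 min, and 193.3 to 360.8 in KO. Its lowest values were therefore the 2 WT arrays at 120 min. Ighm 3 had the widest range of all, from 10.1 on KO 30 min A to 4854 on KO 120 min A, and a difference of -0.45 (SE 0.61, adjusted p = 0.960). The others, Ighm 4 and 6 to 11, had averaged differences between -0.27 and 0.20.

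Ighd, the delta constant gene, is read by 1 probe set, which gave 60.2 to 136.8 in WT and 86.5 to 257.6 in KO. The genotypes overlapped, and the averaged difference of 0.43 (SE 0.16, adjusted p = 0.700) did not pass. The 6 tested probe sets of Ighg3, the gamma 3 constant gene, had averaged differences from -0.18 (Ighg3 1) to 0.43 (Ighg3 3), and none passed. Ighg3 1 read 220.5 to 884.5 in WT and 128.3 to 1770 in KO, with both extremes in KO. Iglc1, the lambda constant gene, had a difference of 0.07 (SE 0.19, adjusted p = 0.980) and read 24.5 to 78.6 in WT and 23.9 to 116.1 in KO.

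**Figure D2:**
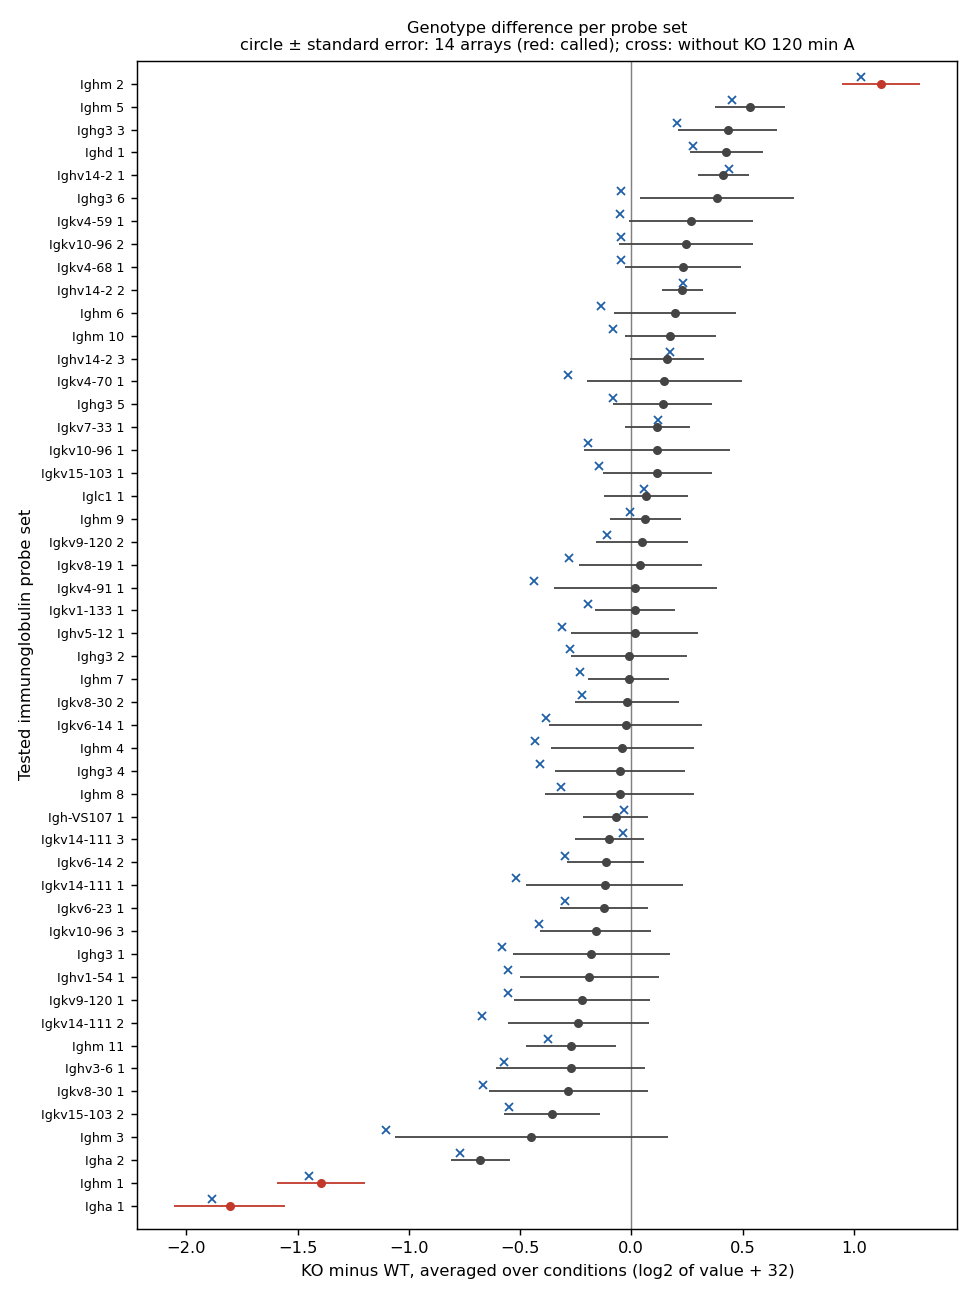
Difference between KO and WT averaged over the 3 conditions, in log2 of value + 32, for the 50 tested probe sets; circles with SE bars use all 14 arrays (red marks the 3 called), and crosses leave out KO 120 min A. Igha 1 (-1.80) and Ighm 1 (-1.40) lie apart at the low end and Ighm 2 (1.12) at the high end, and most crosses lie to the left of their circles.

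The level of Igha 1 was also set against the other heavy chain constant probe sets of the same array, a measure chosen after the values were seen and given without a test. The log2 value of Igha 1 minus that of Ighm 2 was 1.22 to 2.32 on WT arrays and -1.99 to 0.76 on KO arrays. Against Ighd 1 it was 4.26 to 5.30 in WT and 1.46 to 3.71 in KO, again without overlap. Against Ighm 1 the genotypes overlapped, with -0.18 to 0.32 in WT and -0.73 to 0.19 in KO. Over all 19 other tested heavy chain constant probe sets the genotypes lay apart for 6 (Ighd 1, Ighg3 5 and Ighm 2, 5, 6 and 10) and overlapped for 13, among them 5 of the 6 of Ighg3, such as Ighg3 1 (2.08 to 3.15 in WT, -1.05 to 2.37 in KO). Igha 1 by itself already lay apart between genotypes, and the same count was not made for probe sets of other genes. The 6 therefore cannot be read as a shift between antibody classes. The KO mean was below the WT mean for all 19. All 19 share Igha 1, which had the most negative averaged difference of the 50 (-1.80), so this count adds nothing to that difference. Only the contrast between genotypes can be read from such a difference, since its size depends on the probes.

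No variable segment passed in the genotype comparison. Over the 7 tested heavy chain variable probe sets the averaged differences ran from -0.27 to 0.41, and over the 22 kappa variable probe sets from -0.36 to 0.27. The largest was that of Ighv14-2 1 (0.41, SE 0.11, adjusted p = 0.368), followed among the variable probe sets by Igkv15-103 2 (-0.36, SE 0.22, adjusted p = 0.840). The annotation names the same source record for Igha 1, Ighv14-2 1 and Ighv14-2 2, and does not say which stretch each reads. Igha 1 differed by -1.80 between genotypes where Ighv14-2 1 differed by 0.41 and Ighv14-2 2 by 0.23, so the 3 did not move together. Igkv6-23 1, the variable probe set of highest mean, read 2986 to 6575 in WT and 2429 to 10106 in KO (difference -0.12, SE 0.20, adjusted p = 0.962). Igkv6-14 1, next by mean, read 537.5 to 1431 in WT and 347.1 to 3945 in KO (-0.03, SE 0.34, adjusted p = 0.997). For both, KO held the lowest and the highest array.

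Over all 50 the median averaged difference was 0.00, as many lying above zero as below, and the median over all tested probe sets was also 0.00. Without KO 120 min A it was -0.25, with 41 of 50 below zero. In that fit Igha 1 (-1.88, adjusted p = 0.0204) and Ighm 1 (-1.45, adjusted p = 0.0261) stayed called, and Ighm 2 did not (1.03, adjusted p = 0.0911).

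On untreated arrays alone no immunoglobulin probe set was called by limma, where 0% of all tested probe sets were called and 7 of the 50 had an unadjusted p under 0.05 (14%, against 5.48% of all tested). The smallest p belonged to Ighm 1 (-1.14, SE 0.30, adjusted p = 0.634), Igha 1 (-1.37, SE 0.37, adjusted p = 0.662) and Igkv15-103 2 (-0.996, SE 0.33, adjusted p = 0.812). The median of the 50 was -0.21. Muscle markers did not overlap between these groups: their sum was 1667 to 3637 in WT and 4191 to 13334 in KO, and 16 of 16 lay higher in KO (median 1.52), with 15 at an unadjusted p under 0.05 and 0 called. Their part in the untreated Igha 1 and Ighm 1 differences was not tested. At 30 min none of the 50 was called (0.101% of all tested), with 12 at an unadjusted p under 0.05 (24%, against 6.7% of all tested). Ighm 1 had -1.91 (SE 0.36, adjusted p = 0.117), Igha 2 -1.24 (SE 0.24, adjusted p = 0.133) and Igha 1 -2.27 (SE 0.46, adjusted p = 0.143). The median of the 50 was -0.78, and 43 of 50 lay below zero. At 120 min it was 1.06 with 46 of 50 above zero, and Igha 1 (-1.77, SE 0.46, adjusted p = 0.223) and Ighm 1 (-1.14, SE 0.36, adjusted p = 0.397) were 2 of the 4 below. Without KO 120 min A the median at 120 min was 0.23, with 36 of 50 above zero.

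**Figure D3:**
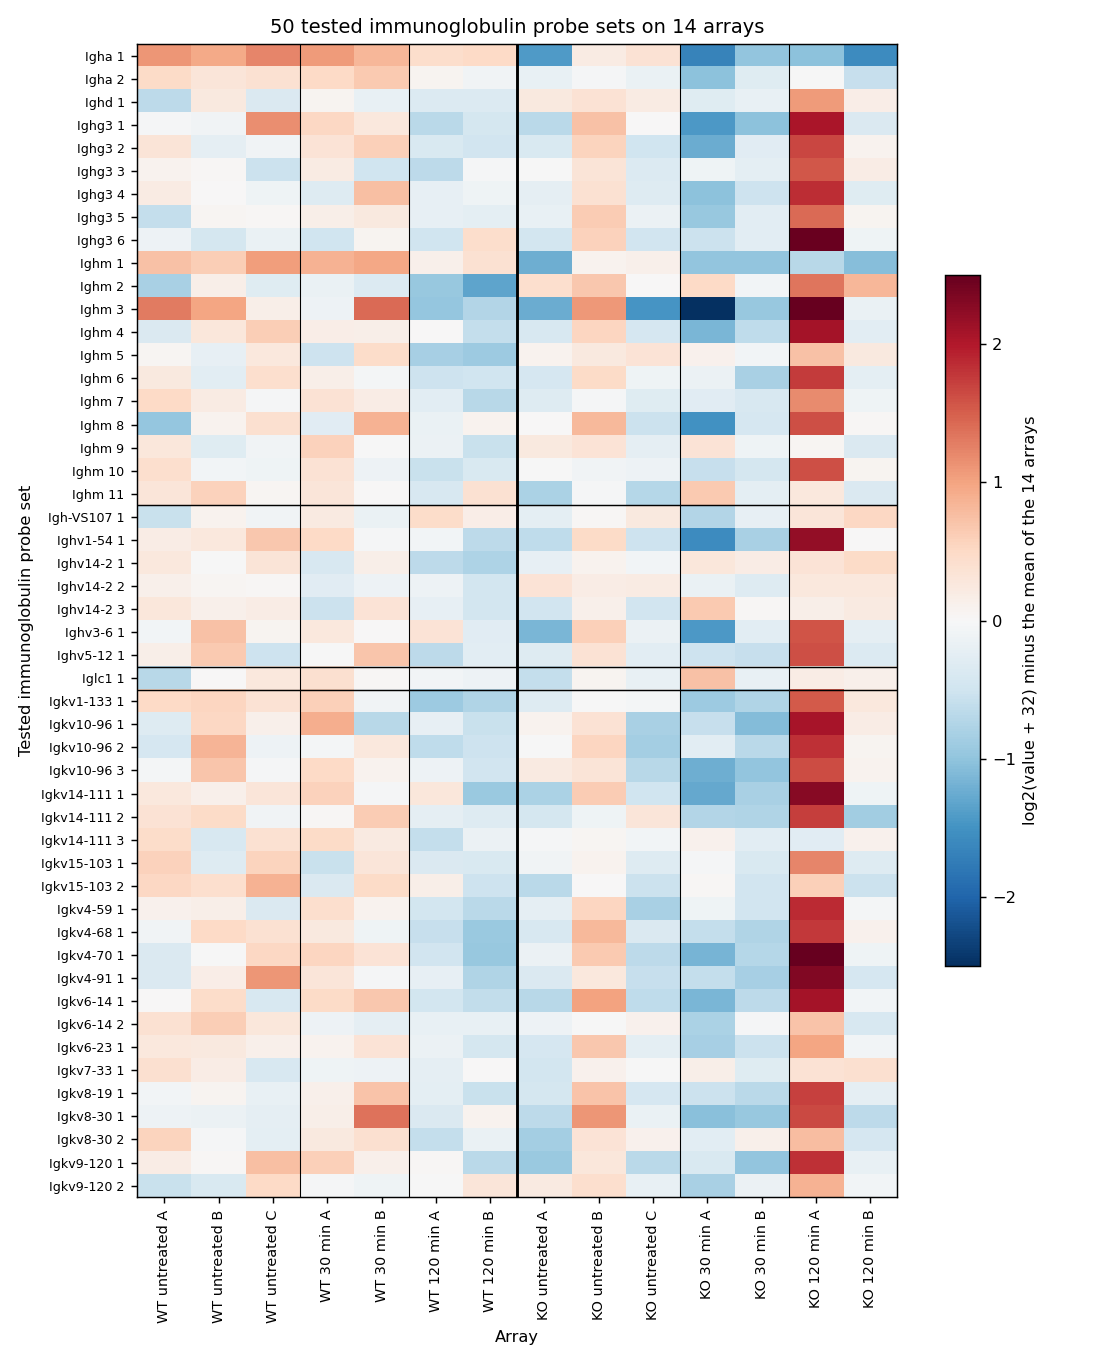
Level of the 50 tested immunoglobulin probe sets on the 14 arrays, as log2 of value + 32 minus the probe set's mean over all arrays (red higher, blue lower); thin vertical lines separate groups, the thick one the genotypes, and horizontal lines the heavy constant, heavy variable, light constant and light variable classes. KO 120 min A is the highest array for 37 of the 50, while Igha 1 and Ighm 1 are lower on all KO arrays than on any WT array.

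In WT, most immunoglobulin probe sets were lower at 120 min than untreated, but none passed. The median log2 difference of the 50 was -0.53, against 0.00 for all tested probe sets, and 44 of 50 lay below zero. Both arrays at 120 min lay below all 3 untreated ones for 28 of the 50, where 15.2% of all tested probe sets did so. By limma 0 of the 50 were called, where 0.515% of all tested were, and 7 had an unadjusted p under 0.05 (14%, against 8.66% of all tested). The smallest p was that of Ighv14-2 1, which read 331.7, 270.4 and 359 untreated, 200.4 and 304 at 30 min and 158 and 146.1 at 120 min (-0.90, SE 0.19, adjusted p = 0.0728). Igkv1-133 1 read 476.2, 483.5 and 434.9 untreated, 507.8 and 304.1 at 30 min, and 155.3 and 181.3 at 120 min (-1.30, SE 0.30, adjusted p = 0.121). Each had its 2 lowest WT arrays at 120 min. Ighm 5 followed (-0.90, SE 0.26, adjusted p = 0.280). Without KO 120 min A in the shared estimate of spread, Igkv1-133 1 passed (-1.30, adjusted p = 0.0199). In the same comparison no marker of muscle or T cells was called, but 16 of 16 tested muscle markers lay above zero (median 0.68), and 1 of 12 T cell markers did (median -0.38), the T cell sum being 778.1 to 798.3 at 120 min against 1115 to 1220 untreated. Their part in the immunoglobulin values was not tested.

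At 30 min in WT the median was 0.04, and 0 of the 50 were called by limma (0.101% of all tested), none having an unadjusted p under 0.05 (5.02% of all tested had). The 3 of smallest p were Igkv6-14 2 (-0.60, adjusted p = 0.975), Ighv14-2 2 (-0.27, adjusted p = 0.980) and Ighv14-2 1 (-0.31, adjusted p = 0.980).

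In KO no immunoglobulin probe set was called at either time. At 30 min the median was -0.50, with 43 of 50 below zero and 7 above, among them Ighv14-2 1, whose 2 arrays lay above all untreated ones. Both arrays lay below all untreated KO arrays for 22 of the 50, where 11.7% of all tested probe sets did so. By limma 0 of the 50 and 0% of all tested were called, with 6 of the 50 at an unadjusted p under 0.05 (12%, against 8.38% of all tested). Of the muscle markers 0 of 16 lay above zero (median -0.84), and their part was not tested. The smallest p values were those of Ighv14-2 2 (-0.49, SE 0.16, adjusted p = 0.425), Igkv10-96 3 (-1.05, SE 0.42, adjusted p = 0.544) and Igha 1 (-1.05, SE 0.42, adjusted p = 0.551).

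At 120 min in KO the median was 0.72, with 45 of 50 above zero, and again 0 of the 50 and 0% of all tested were called by limma; 16 of the 50 had an unadjusted p under 0.05 (32%, against 7.22% of all tested). Both arrays exceeded all untreated KO arrays for 7 of the 50, where 13.2% of all tested probe sets did so. The 3 of smallest p were Igkv1-133 1 (1.03, SE 0.30, adjusted p = 0.590), Ighm 10 (0.91, SE 0.34, adjusted p = 0.647) and Ighv1-54 1 (1.33, SE 0.52, adjusted p = 0.658). Without KO 120 min A the median of the 50 was 0.01, and 26 of 50 lay above zero. In the fit of all arrays 0 of 16 muscle markers lay above zero here (median -1.48, 0 called), and their part was not tested.

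The 2 KO arrays at 120 min differed by a median of 3.52-fold over the 50 probe sets. KO 120 min A was more than 2-fold above B for 37 of them and below B for 5. Such ratios over all tested probe sets are not given, so these do not compare immunoglobulin probe sets with others. The ratio was widest for Ighm 3 (4854 against 262.6). Among the variable segments, Ighv1-54 1 read 2505 against 467.5, Igkv4-70 1 read 2923 against 413.3 and Igkv14-111 1 read 2404 against 388.5. These 3 had the widest range over the group means among variable probe sets, and all were lowest at 30 min in KO. Heavy chain constant and kappa variable probe sets differed by medians of 3.07-fold and 3.9965-fold. The 7 heavy chain variable probe sets split by gene: Ighv1-54 1, Ighv3-6 1 and Ighv5-12 1 differed 5.36-, 4.99- and 4.52-fold, while the 3 of Ighv14-2 and Igh-VS107 1 lay between 0.854 and 1.01. Igha 1 was 768 against 523.9 on these arrays, below every WT array on both. KO 120 min A also had the highest summed level of 16 macrophage and neutrophil markers (4151, against 2471 to 3546 on the other 13 arrays) and of 25 B cell markers (11444, against 7297 to 10660), and the lowest of muscle markers. Its summed level of 15 plasma cell and secretion genes, 10212, lay within the range of the others (7979 to 10478), but the median deviation of those genes from their own means was highest on this array (0.34, against -0.22 to 0.12 on the others). The part of these markers in the immunoglobulin values was not tested.

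**Figure D4:**
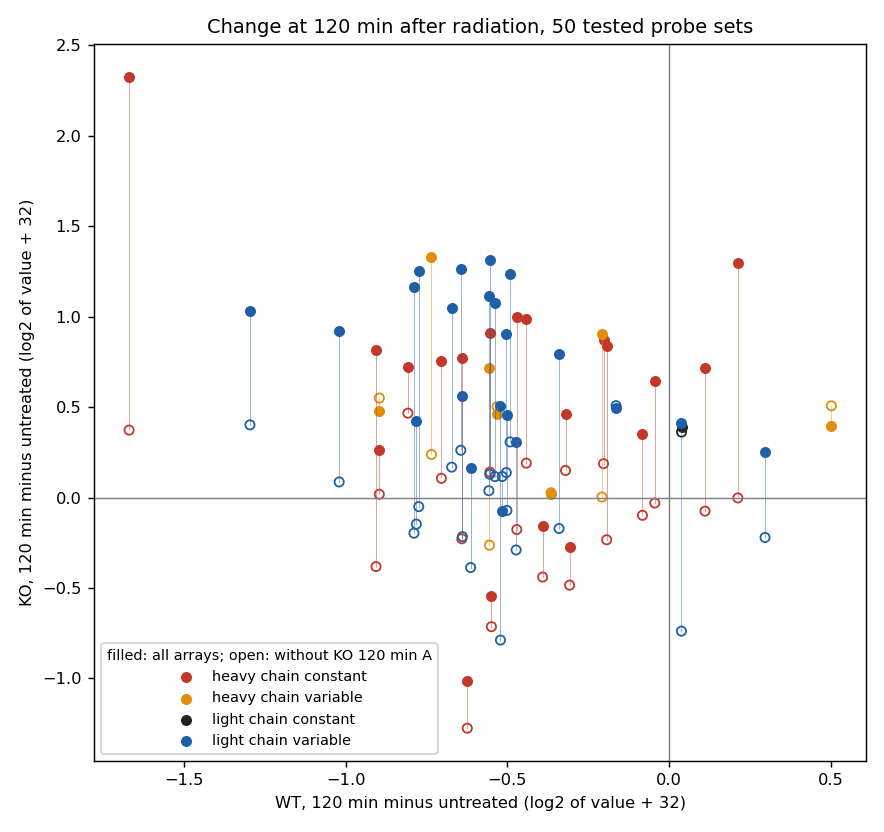
Change from untreated to 120 min after radiation in WT (x axis) and KO (y axis), in log2 of value + 32, for the 50 tested probe sets coloured by class; filled points use all arrays and open points, joined to them by lines, leave out KO 120 min A. In WT 44 of 50 lie below zero, and the KO median drops from 0.72 to 0.01 once KO 120 min A is left out.

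No immunoglobulin probe set passed the test of whether KO responded differently from WT. At 120 min its median was 1.15, and 0.45 without KO 120 min A; by limma 0 of the 50 were called (0.134% of all tested), and 21 had an unadjusted p under 0.05 (42%, against 6.99% of all tested). The smallest p values were those of Igkv1-133 1 (2.33, SE 0.43, adjusted p = 0.0757), Ighv14-2 1 (1.37, SE 0.27, adjusted p = 0.110) and Ighm 2 (1.53, SE 0.42, adjusted p = 0.375). In KO, Igkv1-133 1 read 254.8, 318.4 and 319.6 untreated, 166.1 and 177.8 at 30 min, and 1009 and 396.2 at 120 min. Ighv14-2 1 in KO read 234.5, 291.7 and 262 untreated, 330.1 and 320.7 at 30 min, and 353.5 and 392 at 120 min. Both were thus above their untreated KO arrays at 120 min, where in WT both were below, and for Ighv14-2 1 the higher of the 2 arrays was KO 120 min B. Such opposite moves without overlap held for 4 of the 50 at 120 min (2.79% of all tested) and 3 of the 50 at 30 min (1.64%).

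At 30 min the difference of responses had a median of -0.52, and 0 of the 50 were called by limma (0.0783% of all tested), with 4 at an unadjusted p under 0.05 (8%, against 5.59% of all tested). The 3 of smallest p were Igkv8-30 1 (-2.02, SE 0.85), Ighv14-2 3 (0.92, SE 0.39) and Igha 2 (-0.73, SE 0.31), each with an adjusted p of 0.869. A test of any difference among the 6 groups called 25 of all tested probe sets (0.28%) and 0 of the 50, of which 15 had an unadjusted p under 0.05 (30%, against 8.01% of all tested). Igha 1 (adjusted p = 0.0564), Ighm 1 (0.0661) and Ighm 2 (0.0723) came closest by limma.

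Genes that act with immunoglobulins were read from lists chosen by function. Of 15 tested genes of plasma cells and antibody secretion, 0 were called in any comparison by limma, with 2 at an unadjusted p under 0.05 in the genotype average. Jchain read 958.1, 1007 and 1237 untreated, 1160 and 1002 at 30 min and 717.6 and 767.4 at 120 min in WT. In KO it read 548.8, 1156 and 906.9 untreated, 286.2 and 557.4 at 30 min, and 1408 and 746.2 at 120 min. Unlike Igha 1, Jchain thus overlapped between genotypes (-0.40, SE 0.19, adjusted p = 0.795), and KO 120 min A was its highest array. Tnfrsf17, a plasma cell survival receptor, had -0.46 (adjusted p = 0.680). Of 9 tested immunoglobulin receptors and transporters 0 were called in any comparison, with 3 at an unadjusted p under 0.05 in the genotype average; Pigr had a difference of 0.07 (adjusted p = 0.962). The same held for 19 genes of recombination and class switching (1 at an unadjusted p under 0.05 in the genotype average; Trp53bp1 0.54, adjusted p = 0.697, and Rag1 -0.51, adjusted p = 0.795) and for 3 surrogate light chain genes (0 at an unadjusted p under 0.05).

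B cell markers were called in 1 comparison only. Of 25 tested, 2 fell in WT at 120 min: Cd22, an inhibitory receptor (-1.62, adjusted p = 0.0053), and H2-Ob, a class II chain (-0.95, adjusted p = 0.0343). The call of Cd22 ended without WT 120 min A (adjusted p = 0.0531) or B (0.119), and that of H2-Ob in 12 of the 14 fits that left out 1 array (adjusted p up to 0.567). The median of the 25 was -0.44 there, beside -0.53 for the immunoglobulin probe sets. In KO against WT at 120 min 0 of the 25 were called, but their median was 0.47, with 19 of 25 above zero. By limma 9 of the 25 had an unadjusted p under 0.05 there, against 7.17% of all tested. The difference of responses at 120 min had a median of 0.61 over these markers, with 20 of 25 above zero. Their part in the immunoglobulin values at 120 min was not tested. In the genotype average none of the 25 was called and their median was 0.12, with Cd79a, the signalling partner of membrane immunoglobulin, at 0.55 (adjusted p = 0.456). In bulk RNA, fewer cells of a type and less RNA per cell cannot be told apart. Over all conditions together, summed marker levels overlapped between genotypes for B cells (7297 to 10331 in WT, 8371 to 11444 in KO), genes of plasma cells and antibody secretion (8361 to 10410, 7979 to 10478), T cells (778.1 to 1330, 812.7 to 1360), salivary gland (51651 to 68244, 43784 to 75394) and muscle (1667 to 4494, 1291 to 13334), and no marker of these lists was listed at 0. The plasma cell list also holds general secretion genes, so its sum does not measure plasma cells alone. The part of all these markers in the lower Igha 1 and Ighm 1 of KO was not tested.

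Within groups, the deviations of Igha 1 over the 14 arrays followed those of Ighm 1 most closely among the members (Pearson r = 0.92, Spearman rho = 0.77, and r = 0.69 without the 2 arrays farthest out). Outside the members the 3 most alike were Kng1 (r = 0.95), Prpf6 (r = 0.93) and Ly6e (r = 0.92), given as a description of 14 arrays that share groups and scaling.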

How the data were processed

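Total RNA labelled as murine lymph node was measured on 14 Affymetrix arrays. Each deposited value is a linear intensity for 1 probe set on 1 array, scaled before deposit: as read from the deposited values, the mean without the highest and lowest 2% was 150.1 on every array. The sources used here name no software. Groups, times and replicate letters were read from the sample titles. Gene names came from the platform annotation, and 59 of the 62 members were found by Entrez ID.

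Values were taken as log2(value + 32), quantile normalized over all 12488 probe sets, since array medians spanned 0.27 on the log2 scale. Control probe sets (66) were left out, and 8938 lay above the 40th percentile on at least 2 arrays. A model of 6 group means was fitted with limma 3.58.1 (8 residual degrees of freedom; R 4.3.3), tested two-sided and adjusted over all 8938 by Benjamini-Hochberg. The fit was tested on simulated data. Precision is limited by how few arrays each group has. The members and lists were chosen with earlier results of these data known. Named members are every constant gene, variable segments called, of widest range or of highest mean, and the 3 of smallest p where none was called. Replicate letters showed no sign of pairing the arrays: same-letter correlations were -0.12 to 0.08 over 31 pairs. These pairs are not independent, since deviations in a group of 2 arrays mirror each other. A shared batch or day is not excluded by this, and the labels do not say what the letters mark. Alternatives changed the offset, floor, normalization, filter, variance prior, block, arrays fitted and probe sets counted.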

Additional observations from a re-analysis of the deposited data

Results flagged for a closer look

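For 7 of the 50 tested probe sets, at 1 of the 2 times, both irradiated WT arrays lay on one side of all untreated WT arrays and both irradiated KO arrays lay on the other side of all untreated KO arrays. Such opposite moves held for 1.64% of all tested probe sets at 30 min and for 2.79% at 120 min. The values below are the KO response minus the WT response in log2 of value + 32, and none passed limma's test of that difference. At 30 min they were Ighg3 5 (-1.07), Igkv8-19 1 (-1.04) and Igkv8-30 1 (-2.02), each above its untreated arrays in WT and below them in KO. At 120 min they were Ighv14-2 1 (1.37), Ighm 2 (1.53), Ighm 10 (1.46) and Igkv1-133 1 (2.33), each below its untreated arrays in WT and above them in KO. Without KO 120 min A the differences at 120 min were 1.45 for Ighv14-2 1, 1.27 for Ighm 2, 0.70 for Ighm 10 and 1.70 for Igkv1-133 1. The KO response of Ighm 10 itself went from 0.91 to 0.14 without that array.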

How the results depend on the processing

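The averaged genotype calls of Igha 1 and Ighm 1 held with every other offset, floor, filter, normalization and variance prior and with the replicate block; that of Ighm 2 ended with the replicate block (1.12, adjusted p = 0.0726), and the cause was not tested. Replicate letters showed no sign of pairing the arrays, and the labels do not say what they mark. The number of members called changed as follows. At 120 min in WT, where the main fit called 46 of all tested, 0 became 1 with offset 64 (63) and with a filter at the 60th percentile (60 of 6083). It became 1 in a fit of only the groups compared (21), and 2 with a trended, robust prior (62). KO against WT at 30 min, with 9 of all tested called in the main fit, went from 0 to 1 with offset 64 (11). At 120 min, with 23 of all tested called in the main fit, it went from 1 to 3 with offset 64 (37) or the 60th percentile (31 of 6083). It went to 2 without quantile normalization (26), 4 with the trended prior (45), and 0 with only the groups compared (4). Counting 1 probe set per gene also gave 0 (23), but this was fixed by the choice of probe set. That choice kept Ighm 1, the brightest of its gene, and left out Ighm 2, the only member called. The difference of responses at 120 min, with 12 of all tested called in the main fit, went from 0 to 1 with offset 64 (20) or the trended prior (12). Any difference among groups, with 25 of all tested called in the main fit, went from 0 to 3 with offset 64 (36) or the trended prior (42). It went to 2 with the 60th percentile (30 of 6083). A fit that left out 1 irradiated array kept 1 array in that group, and its count of called members is not listed here. That lone array was assumed to vary like the other groups. For KO against WT at 120 min the median of the 50 was 0.23 without KO 120 min A and 1.84 without KO 120 min B. Without KO untreated A, KO against WT called 2 members at 30 min (10 of 8892) and 2 at 120 min (23 of 8892). Any difference among groups called 2 members in that fit (23 of 8892). It called 1 without WT untreated B (24 of 8874) or without KO untreated C (24 of 8898). Leaving out both KO 120 min A and KO 30 min A, chosen after seeing the data, ended the averaged call of Igha 1 (-1.76).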
